A study of Mus musculus with 9 samples.

Results

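The genes described here are 8 mouse members of the CAP superfamily (cysteine-rich secretory proteins, antigen 5 and pathogenesis-related 1), namely Crisp1, Crisp3, Crisp4, Crispld1, Crispld2, Glipr1, Glipr2 and Pi16. They were taken by symbol from the 24059 genes of the count table, and all 8 were found there. Messenger RNA was sequenced from the caput, corpus and cauda of the epididymis of wild type C57BL/6J mice aged 9 months, with 3 libraries per segment and reads of 36 bases. The labels name no mutation and no treatment, and position along the duct was the only difference they give between the groups. Sperm leaving the testis pass the caput, then the corpus, and are held in the cauda. Whether each of the 3 libraries is a different mouse is not stated in the labels. The p-values therefore rest on library-to-library spread, which may be technical in part.

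CRISP proteins join a CAP domain to a cysteine-rich tail that can act on ion channels. Epididymal epithelium secretes Crisp1 and Crisp4 under androgen control, and both proteins bind to passing sperm and take part in sperm interaction with the egg. Crispld1 and Crispld2 are secreted CAP proteins that carry LCCL domains, Glipr1 and Glipr2 are smaller relatives, Glipr2 being held on the Golgi membrane, and Pi16 is a membrane-anchored CAP protein known as a marker of adventitial fibroblasts.

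Crisp1 and Crisp3 are alike in sequence, and parts of their sequences are shown because they bear on how far the short reads can tell the genes apart. On mm10 (GRCm38, GENCODE M21 annotation) both lie on the minus strand of chromosome 17, Crisp3 at 40221777 to 40242288 and Crisp1 at 40293758 to 40319207, with 51469 bases between them. The 250 bases upstream of each start, from RefSeq (GRCm38.p6), differed at 11 positions (95.6% identity without gaps). They are chr17:40319208-40319457 for Crisp1 and chr17:40242289-40242538 for Crisp3, and capitals mark the positions that differ.
Crisp1 upstream: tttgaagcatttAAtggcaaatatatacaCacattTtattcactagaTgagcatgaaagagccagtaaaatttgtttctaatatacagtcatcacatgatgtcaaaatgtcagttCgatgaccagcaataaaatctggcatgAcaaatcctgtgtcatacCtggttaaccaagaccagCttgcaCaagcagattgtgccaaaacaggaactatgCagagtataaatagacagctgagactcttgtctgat
Crisp3 upstream: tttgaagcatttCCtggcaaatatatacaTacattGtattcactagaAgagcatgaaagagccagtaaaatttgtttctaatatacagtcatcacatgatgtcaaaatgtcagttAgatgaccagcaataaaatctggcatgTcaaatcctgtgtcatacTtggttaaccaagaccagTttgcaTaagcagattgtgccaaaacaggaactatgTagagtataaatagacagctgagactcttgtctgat
Among the other 32850 upstream windows of the table, the next closest to Crisp1 after Crisp3 shared 39.2% of positions and the median was 24.8%. The letters TATAAA stood 31 bases before the start in both genes, and were found on either strand in 12.4% of the 32851 windows of this length. The letters AGAACA, those of an androgen receptor half-site, occurred on either strand in the windows of Crisp4 and Pi16 and not in those of Crisp1, Crisp3, Crispld2 or Glipr2, against 16.1% of all windows.

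The transcripts were also alike. Exon 4 of both genes, 88 coding bases at chr17:40307692-40307779 in Crisp1 and chr17:40234705-40234792 in Crisp3, differed at 1 position, printed in capitals.
Crisp1 exon 4: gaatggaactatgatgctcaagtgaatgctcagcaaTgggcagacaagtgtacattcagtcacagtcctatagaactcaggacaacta
Crisp3 exon 4: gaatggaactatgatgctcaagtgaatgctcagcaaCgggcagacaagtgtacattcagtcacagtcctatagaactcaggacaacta
Exon 4 was more alike than the rest. Coding sequences of Crisp1 and Crisp3 were 85.5% identical over the alignment, against 65.6% for Crisp1 and Crisp2 and 51.1% for Crisp1 and Crisp4. Whole transcripts of Crisp1 and Crisp3 were 88.6% identical. Of the 1381 windows of read length in the Crisp1 transcript, 102 (7.39%) occurred without a mismatch in Crisp3, and 359 (26.0%) did so with at most 1 mismatch. With at most 2 mismatches it was 592 (42.9%), and the least alike windows had 18. Crisp4, Crispld2 and Glipr2 shared no window of read length without a mismatch with another gene on either strand. On the same strand, other genes shared 6.36% of Glipr1 windows, 2.91% of Pi16 windows and 0.221% of Crispld1 windows. On the opposite strand these shares were 22.3%, 5.72% and 11.5%. How the authors' counting placed reads that match both Crisp1 and Crisp3 is not given in the sources used here, so the Crisp3 values below are uncertain.

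**Figure D1:**
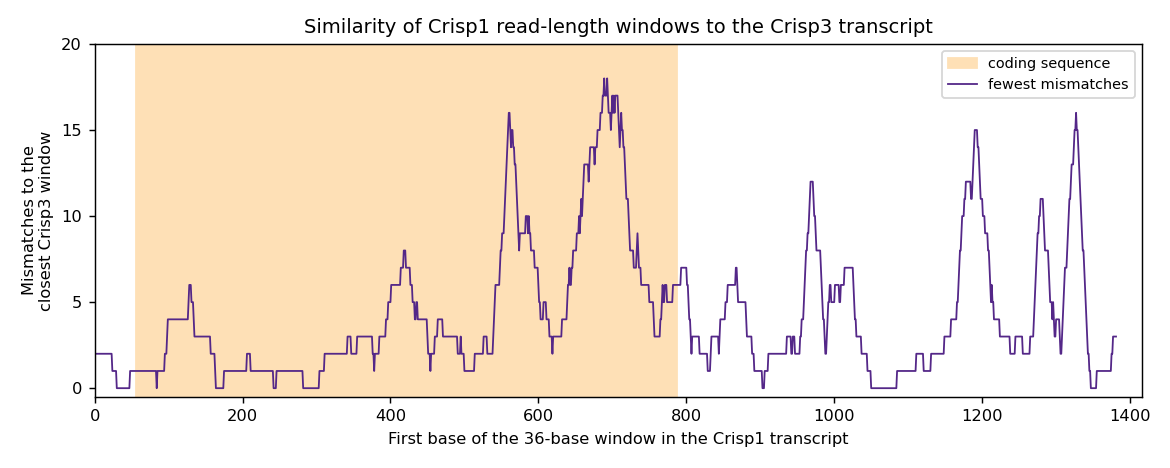
Fewest mismatches (y axis) between each window of 36 bases of the Crisp1 transcript (coding sequence shaded) and any window of the Crisp3 transcript, against the first base of the window (x axis, bases from the 5′ end). 102 of 1381 windows have 0 mismatches, and they are spread over the coding and the noncoding parts.

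Crisp1, whose secreted product coats sperm in the duct, was far lower in the caput than in the corpus and cauda, where it was among the most abundant transcripts. Its level per gene length in the authors' RPKM (reads relative to transcript length and sequencing depth) was 323, 331 and 414 in caput libraries 1 to 3, 10441, 8266 and 8883 in corpus libraries, and 17024, 15449 and 14302 in cauda libraries. The ranges of the segments did not overlap, and by mean RPKM Crisp1 ranked 69 of 24059 genes in the caput, 1 in the corpus and 2 in the cauda. On TMM-scaled counts, Crisp1 was 28.4-fold lower in caput than in corpus (log2 difference -4.83, SE 0.15, edgeR quasi-likelihood adjusted p = 1.23e-11). It was 1.61-fold lower in corpus than in cauda (log2 difference -0.69, SE 0.13, edgeR adjusted p = 0.000806). In bulk tissue, fewer cells of a type and less RNA per cell cannot be told apart, here and in every comparison that follows.

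The summed RPKM of 8 genes known from caput epithelium, such as the lipocalin Lcn8 and the antioxidant enzyme Gpx5, was highest in the caput. It was 27576 to 29508 in caput libraries, 8.17 to 9.85 in corpus libraries and 85.7 to 112 in cauda libraries. Nearly all of the cauda sum was Gpx5, which averaged 16442 in caput, 7.07 in corpus and 97.9 in cauda. Between corpus and cauda, Gpx5 was called by edgeR and the other 7 were not. Of these 8 genes, all were higher in caput than in corpus by edgeR, none lower.

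Crisp3, best known in the mouse from salivary gland and the B cell lineage, had RPKM of 12.2, 14.7 and 15.5 in caput libraries, 344, 263 and 285 in corpus libraries, and 556, 540 and 542 in cauda libraries. It was 23.0-fold lower in caput than in corpus (log2 difference -4.52, SE 0.13, edgeR adjusted p = 4.78e-12) and 1.75-fold lower in corpus than in cauda (-0.81, SE 0.10, edgeR adjusted p = 3.27e-05). The segments did not overlap, and the steps lay close to those of Crisp1. While Crisp1 itself spanned a wide range, the count of Crisp3 relative to Crisp1 stayed within a narrow one. For every 100 Crisp1 counts there were 3.70, 4.36 and 3.65 Crisp3 counts in caput libraries, 3.23, 3.12 and 3.14 in corpus libraries, and 3.20, 3.42 and 3.71 in cauda libraries. Corpus libraries were spread least, caput libraries lay above all corpus libraries, and caput and cauda libraries overlapped. Within the cauda, the exact 95% Clopper-Pearson intervals were 3.13 to 3.27, 3.34 to 3.50 and 3.63 to 3.79, so libraries of 1 segment differed by more than counting error. These intervals cover counting error only. For scale, if Crisp1 alone were transcribed and its reads in the windows without a mismatch were split evenly between the genes, Crisp3 would receive 3.83 counts per 100. That value takes every window of the spliced transcript as equally likely to be read and counted, including windows across exon junctions, which may not hold. How many Crisp3 counts came from Crisp1 transcripts was not tested. The summed RPKM of 6 neutrophil genes was also read beside Crisp3. It was 0.232 to 0.999 in caput libraries, 0 to 0.681 in corpus libraries and 32.1 to 98.1 in cauda libraries. Nearly all of the cauda sum was S100a8, the only one of the 6 that was tested, while the defining granule genes Elane and Mpo had 0 counts in all 9 libraries, and the part of these cells in the Crisp3 counts was not tested.

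**Figure D2:**
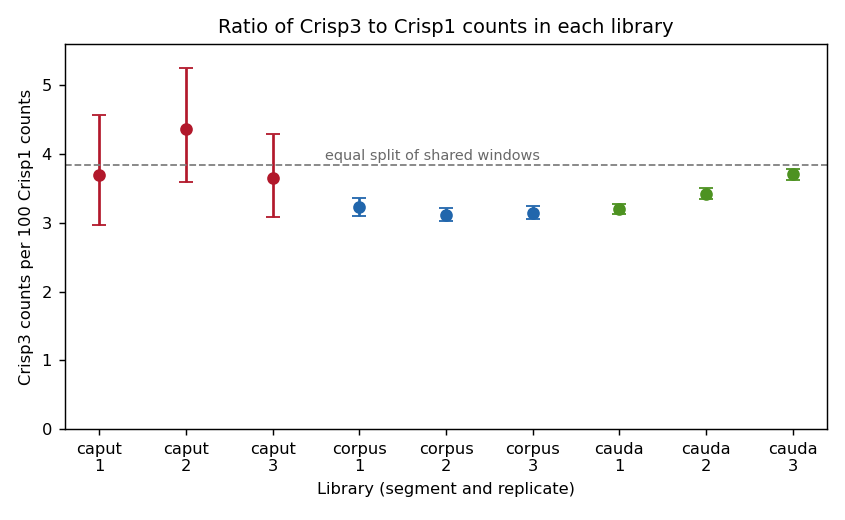
Crisp3 counts per 100 Crisp1 counts (y axis) in each library of caput, corpus and cauda (x axis), with exact 95% Clopper-Pearson intervals as bars. The dashed line at 3.83 is for scale. It is the value from an even split of shared windows if Crisp1 alone were transcribed and evenly covered, which was not tested. The libraries lie between 3.12 and 4.36.

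Crisp4, a sperm-coating protein of the mouse epididymis encoded on chromosome 1 (18115191 to 18145902, minus strand), ran against Crisp1 and Crisp3. Its RPKM was 112, 115 and 118 in caput libraries, 82.9, 69.7 and 78.3 in corpus libraries, and 18.1, 16.7 and 16.9 in cauda libraries, with no overlap between segments. The step from caput to corpus was small (1.36-fold higher in caput, log2 difference 0.44, SE 0.09, edgeR adjusted p = 0.00071). The main step lay between corpus and cauda, where Crisp4 was 4.68-fold higher in corpus (log2 difference 2.23, SE 0.10, edgeR adjusted p = 1.56e-09). Crisp1 exceeded Crisp4 in RPKM in all 9 libraries, by 3.09 ± 0.36 times in caput, 119 ± 6.31 times in corpus and 904 ± 51.3 times in cauda (SD, n = 3 each). The summed counts of the 8 genes made up 0.126 ± 0.0145% of gene counts in caput, 2.80 ± 0.296% in corpus and 4.34 ± 0.391% in cauda (SD, n = 3 each). Crisp1 held 71.6 ± 3.13% of that sum in caput, 95.9 ± 0.091% in corpus and 96.4 ± 0.272% in cauda.

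Between the ends of the duct, caput minus cauda was -5.52 for Crisp1 (SE 0.16, edgeR adjusted p = 4.76e-12), -5.33 for Crisp3 (SE 0.13, adjusted p = 1.23e-12) and 2.67 for Crisp4 (SE 0.10, adjusted p = 5.8e-11) on the log2 scale. The order of RPKM levels changed with them. In the caput it was Crisp1, Crisp4, Crisp3 and Crispld2, whose library ranges did not overlap, followed by Pi16, Glipr2 and Crispld1, neighbours that overlapped, and Glipr1. Corpus libraries had Crisp3 above Crisp4, then Crispld2 and Pi16, which overlapped. Cauda libraries kept Crisp1, Crisp3 and Crisp4 in that order, then Pi16, with Glipr2 and Crispld2 overlapping below it.

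**Figure D3:**
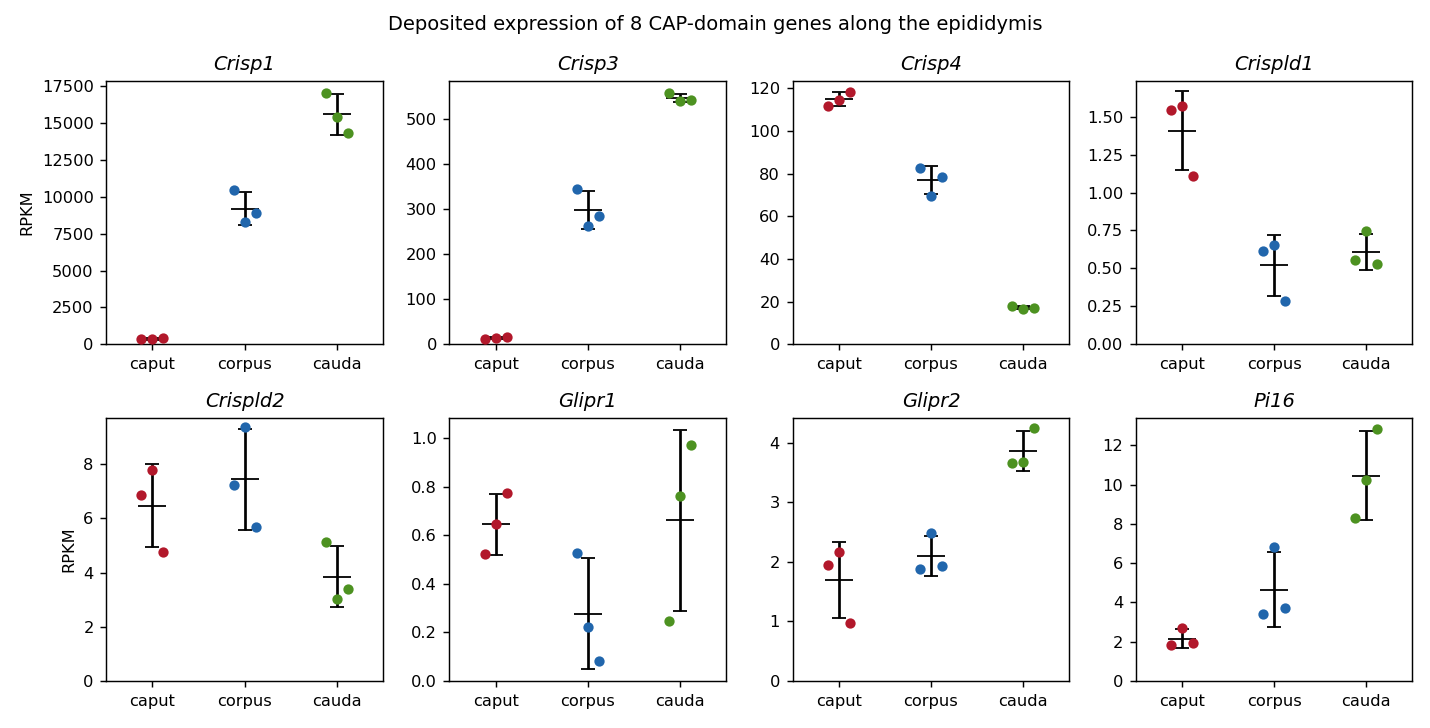
RPKM of each of the 8 genes (y axis, linear, with its own scale in each panel) in caput, corpus and cauda (x axis). Points are the 3 libraries of a segment and bars are the mean with its SD, and the means are 356 in caput, 9196 in corpus and 15592 in cauda for Crisp1, and 115 in caput, 77.0 in corpus and 17.2 in cauda for Crisp4.

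Of the LCCL-domain genes, Crispld1 (chromosome 1, 17727045 to 17766344, plus strand) was highest in the caput. Its RPKM was 1.55, 1.57 and 1.11 in caput libraries, 0.618, 0.656 and 0.287 in corpus libraries, and 0.557, 0.746 and 0.526 in cauda libraries, resting on 13 to 36 counts each. Every caput library lay above every corpus and cauda library, whereas corpus and cauda overlapped. Crispld1 was 2.49-fold higher in caput than in corpus (log2 difference 1.31, SE 0.29, edgeR adjusted p = 0.00174) and 2.19-fold higher in caput than in cauda (1.13, SE 0.28, edgeR adjusted p = 0.00381). Between corpus and cauda the log2 difference was -0.18, with a 95% interval of -0.84 to 0.47.

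Crispld2 (chromosome 8, 119992438 to 120052793, plus strand), known from lung development in the mouse and rat, was instead lowest in the cauda. It had RPKM of 6.88, 7.77 and 4.76 in caput libraries, 7.25, 9.38 and 5.68 in corpus libraries, and 5.12, 3.01 and 3.40 in cauda libraries. Corpus libraries all lay above cauda libraries, and caput libraries overlapped both. Crispld2 was 2.03-fold higher in corpus than in cauda (log2 difference 1.02, SE 0.21, edgeR adjusted p = 0.00149). Against the cauda, the caput was 1.58-fold higher (0.66, SE 0.22, edgeR adjusted p = 0.0198), a call that was lost with robust dispersion (adjusted p = 0.0522). It was also lost without caput library 1 (adjusted p = 0.0611) or 2 (0.0979) and without cauda library 2 (0.0789) or 3 (0.0642). Caput minus corpus gave -0.36 (95% interval -0.81 to 0.09, edgeR adjusted p = 0.161), and without corpus library 3 it gave -0.51 (adjusted p = 0.0486).

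Pi16 (chromosome 17, 29317680 to 29330593, plus strand) was lowest in the caput and highest in the cauda. Its RPKM was 1.84, 2.72 and 1.92 in caput libraries, 3.39, 6.84 and 3.71 in corpus libraries, and 8.30, 10.2 and 12.9 in cauda libraries. The segments did not overlap, and corpus library 2 stood above the other corpus libraries. Pi16 was 2.46-fold lower in caput than in corpus (log2 difference -1.30, SE 0.29, edgeR adjusted p = 0.00169) and 2.07-fold lower in corpus than in cauda (-1.05, SE 0.22, edgeR adjusted p = 0.00199). Caput minus cauda was -2.34 (SE 0.27, edgeR adjusted p = 6.38e-06). Without corpus library 2 these became -0.91 (adjusted p = 0.00746) and -1.44 (adjusted p = 7.81e-05).

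Markers of the cells in which Pi16 is known were read beside it. The summed RPKM of 8 adventitial fibroblast markers was 117 to 128 in caput, 112 to 184 in corpus and 458 to 543 in cauda libraries, of which Ly6a alone averaged 36.9, 60.9 and 392. By edgeR, 2 of the 8 were higher and 5 lower in caput than in corpus, and 0 were higher and 4 lower in corpus than in cauda. The 10 general fibroblast genes included that of the matrix protein decorin (Dcn). Their sum was 97.9 to 142 in caput, 71.3 to 204 in corpus and 208 to 264 in cauda libraries. Dcn alone averaged 49.6, 68.4 and 152, while Pdgfra averaged 28.3, 3.02 and 4.28. Of the 10, 1 was higher, 2 were lower and 7 were not called in caput against corpus by edgeR. Between corpus and cauda, 0 were higher in corpus, 2 were lower and 8 were not called. Corpus library 2 was the highest corpus library in both sums, as it was for Pi16 and Crispld2. The same library was the highest of the corpus for Crispld1, Glipr2 and Crisp2. It was also the highest of the corpus in the sums of smooth muscle (271), endothelial (39.1), macrophage (92.0) and general epithelial genes (623). The other corpus libraries had epithelial sums of 616 and 589, and general fibroblast sums of 104 and 71.3. Corpus library 2 was the lowest of the corpus for Crisp1, Crisp3, Crisp4 and the sum of basal cell genes (68.1), and not the highest in the sperm gene sum (247). The part of fibroblast content in Pi16 was not tested.

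**Figure D4:**
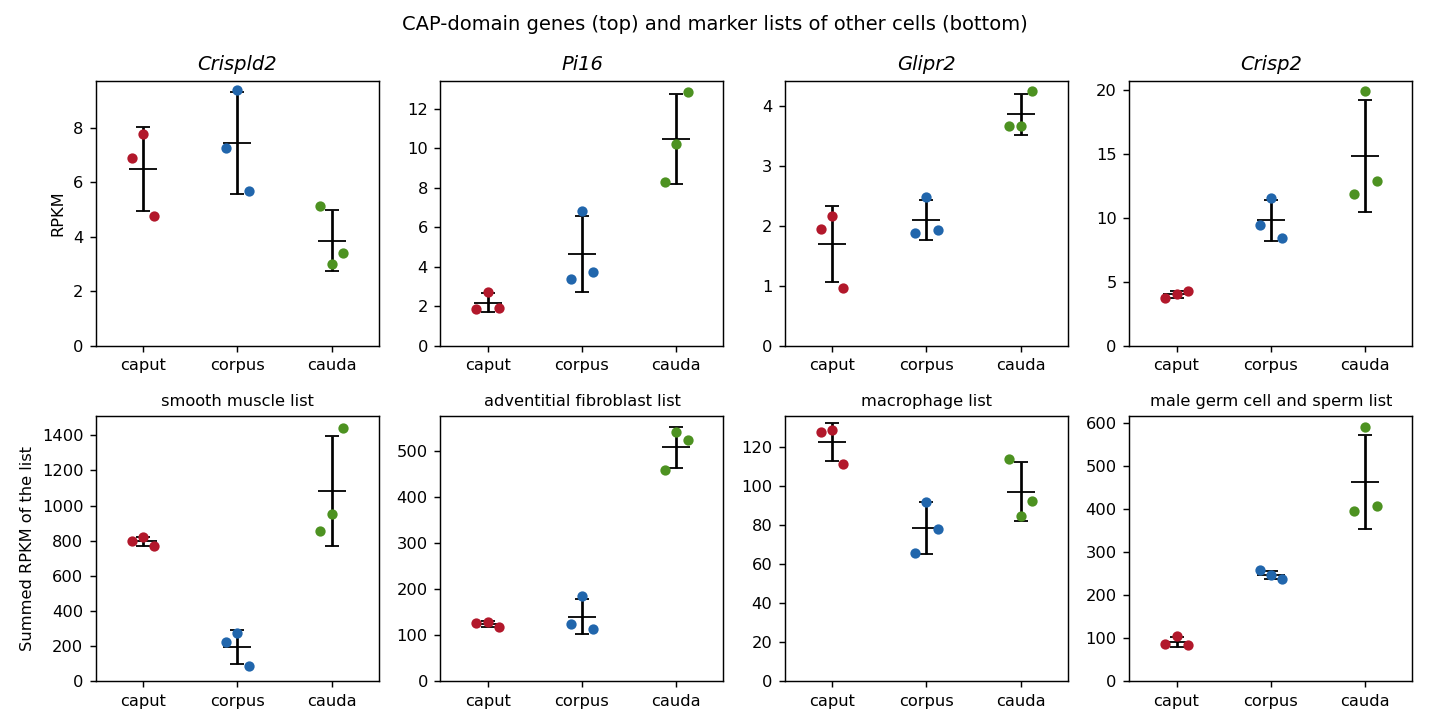
RPKM of Crispld2, Pi16, Glipr2 and Crisp2 (top, y axis) and summed RPKM of the smooth muscle, adventitial fibroblast, macrophage and sperm gene lists (bottom, y axis) in caput, corpus and cauda (x axis), with points for libraries and bars for the mean with its SD. Pi16 and the adventitial fibroblast sum are both highest in the cauda, where that sum lies between 458 and 543.

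Glipr2 (chromosome 4, 43957401 to 43979118, plus strand) was highest in the cauda. It had RPKM of 1.95, 2.16 and 0.965 in caput libraries, 1.89, 2.48 and 1.93 in corpus libraries, and 3.67, 3.68 and 4.26 in cauda libraries, and caput and corpus overlapped. Glipr2 was 1.72-fold lower in corpus than in cauda (log2 difference -0.78, SE 0.21, edgeR adjusted p = 0.0107) and 2.45-fold lower in caput than in cauda (-1.29, SE 0.24, edgeR adjusted p = 0.000458). The caput minus corpus difference was -0.51, with a 95% interval of -1.07 to 0.05.

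Glipr1 (chromosome 10, 111985448 to 112002631, minus strand), first described in human glioma, was near the detection limit. It had 3, 4 and 6 counts in caput libraries, 3, 3 and 1 in corpus libraries, and 3, 8 and 12 in cauda libraries, and did not pass the filter on low counts. Fitted without that filter, its differences were 1.33 for caput minus corpus (SE 0.73, edgeR adjusted p = 0.155) and -1.42 for corpus minus cauda (SE 0.66, edgeR adjusted p = 0.119), so no change was detectable at this depth. Glipr1 overlaps Krr1 on the opposite strand, which had 96 to 224 counts per library, and the strand setting of the counting is not given in the sources used here. Crispld1, Crispld2 and Pi16 are also overlapped by annotated transcripts of the opposite strand, and Crispld2 by one of its own strand, whose symbols are not among those counted.

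Set against all genes, the calls on the 8 genes were as follows. Between caput and corpus, 57.7% of the 14168 tested genes passed an edgeR adjusted p of 0.05, and 5 of the 7 tested members did, 2 higher in caput (background 28.2%) and 3 lower (29.5%). Between corpus and cauda, 39.2% of genes and 6 of 7 members passed, 2 higher in corpus (20.4%) and 4 lower (18.8%). Between caput and cauda, 54.7% of genes and 7 of 7 members passed, 3 higher in caput (27.2%) and 4 lower (27.5%). Glipr1 was the member not tested. With so many tested genes called, the counts alone say little about the members. As the members were chosen with earlier results of these data known, the medians below describe the members and test nothing. Their median absolute log2 difference was 1.30 for caput minus corpus, against 0.51 over all tested genes, 0.81 against 0.32 for corpus minus cauda, and 2.34 against 0.47 for caput minus cauda, with Crisp1 and Crisp3, which share sequence, both among the 7.

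**Figure D5:**
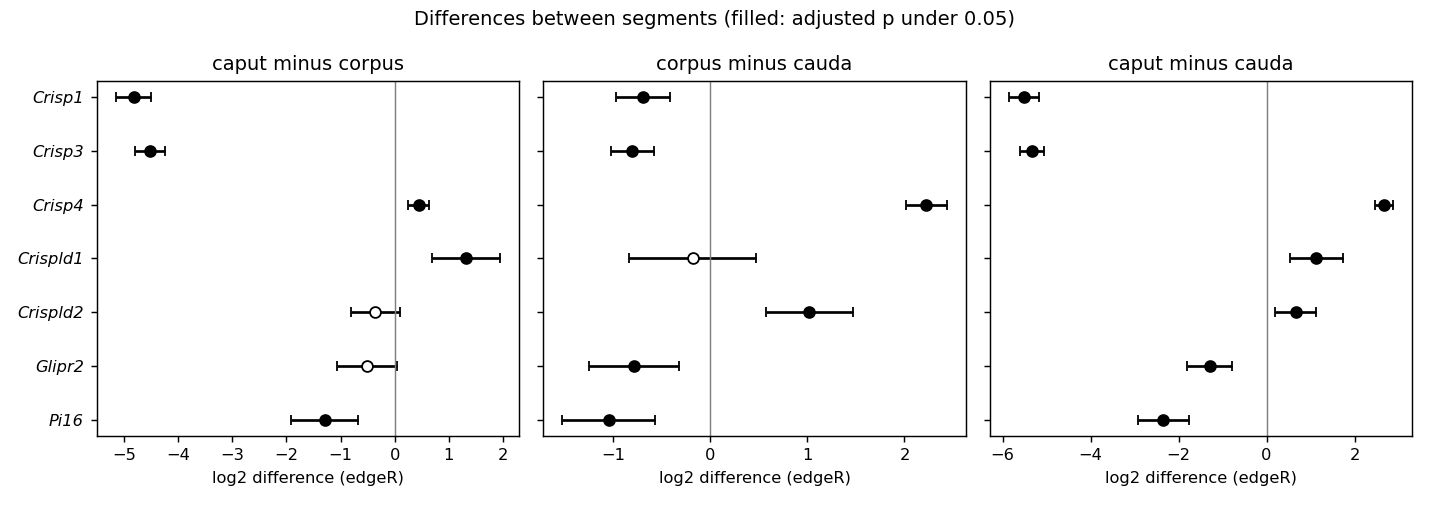
Log2 differences of TMM-scaled counts for the 7 tested genes in caput minus corpus, corpus minus cauda and caput minus cauda, with 95% intervals as bars and filled points for an edgeR adjusted p under 0.05. Crisp1 and Crisp3 lie below -4 in both comparisons with the caput, while Crisp4 lies above 0 in all of them.

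Other CAP genes gave further patterns. Crisp2, the form made by developing sperm and held in the acrosome, had RPKM of 3.71, 4.04 and 4.26 in caput libraries, 9.46, 11.6 and 8.44 in corpus libraries, and 11.8, 19.9 and 12.9 in cauda libraries. It was lower in caput than in corpus (log2 difference -1.43, SE 0.23, edgeR adjusted p = 0.000137). Corpus minus cauda gave -0.51 (SE 0.18, edgeR adjusted p = 0.0406), a call lost without cauda library 2 (-0.24, adjusted p = 0.198) and under 6 other settings. The list of 14 germ cell and sperm genes included protamine 2 (Prm2) and the outer dense fibre gene Odf1. Of these 14 genes, 11 were lower and 1 was higher in caput than in corpus. Against the cauda, 10 were lower and 0 higher in corpus. Their summed RPKM was 84.6 to 104 in caput, 238 to 257 in corpus and 395 to 591 in cauda libraries, with cauda library 2 the highest, as for Crisp2. The part of sperm RNA in the Crisp2 values was not tested.

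Clec18a, a CAP gene with a lectin domain, had nearly all its counts in the caput, with 54, 35 and 46 counts in caput libraries, 0, 0 and 2 in corpus libraries, and 1, 0 and 0 in cauda libraries. Scaled by total gene counts, without TMM, pooled caput counts were 93.0 times corpus counts (95% counting interval 25.3 to 776). They were 226 times cauda counts (39.9 to 9005). These intervals leave out library-to-library spread. Clec18a passed the filter on low counts only through the caput. Of the remaining relatives, Glipr1l1 had at most 2 counts and Glipr1l2 at most 1 count in a library, and R3hdml had 0 in every library. An observed 0 puts the upper 95% limit of the expected count in a library at about 3. Glipr1l3 is not among the symbols counted, so its expression could not be analysed here.

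The genes most like each member were those with the smallest root mean square difference of centred log2 expression over the 9 libraries, among 12718 genes compared. For Crisp1 these were Crisp3 (0.15 log2 units), the carboxylesterase Ces1e (0.26) and Gdpd5 (0.38). Ces1e averaged 0.259 RPKM in caput, 9.93 in corpus and 19.9 in cauda. For Crisp4 they were Efna3 (0.18), Nptx1 (0.19) and Trim36 (0.20), and for Pi16 they were Lypd6 (0.23), S100a6 (0.24) and Arhgap28 (0.26). Crispld1 was nearest to Ppap2a (0.15), Crispld2 to Sipa1 (0.19) and Glipr2 to Specc1 (0.17). No 2 members other than Crisp1 and Crisp3 were among each other's nearest genes.

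Gene counts totalled 3013470 to 3946335 in caput, 2600061 to 6076479 in corpus and 5095298 to 6072094 in cauda libraries. Libraries of 1 segment correlated at 0.991 to 0.995 and libraries of different segments at 0.907 to 0.973 (Pearson r across genes, log2 of CPM + 1, where CPM is the depth-scaled count), where genes are not independent replicates. The summed RPKM of 6 general epithelial genes, Epcam among them, was 492 to 557 in caput, 589 to 623 in corpus and 443 to 456 in cauda libraries. The summed RPKM of 8 seminal vesicle and prostate markers was 1.20 to 1.51 in caput, 1.28 to 1.52 in corpus and 42.0 to 53.7 in cauda libraries. In the cauda it was mainly the seminal vesicle gene Svs1 (mean 37.9), while the prostate gene Tgm4 averaged 1.38 in caput, 1.17 in corpus and 1.41 in cauda and Pbsn had 0 counts throughout. The smooth muscle sum was 771 to 819 in caput, 86.9 to 271 in corpus and 855 to 1441 in cauda libraries. Actg2 alone averaged 517 in caput, 6.64 in corpus and 81.6 in cauda, and 10 of the 11 smooth muscle genes were lower in caput than in cauda by edgeR. The macrophage sum was 112 to 129 in caput, 65.6 to 92.0 in corpus and 84.7 to 114 in cauda libraries.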

How the data were processed

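Counts of reads per gene symbol were deposited by the authors for 9 libraries, per the file headers, without normalization. RPKM values were deposited by the authors for the same genes, per the file headers, and were used for levels. Per the labels' protocols, RNA was taken with Trizol from flash frozen tissue, and a KAPA stranded mRNA kit and an Illumina GAIIx were used. Bowtie2 2.2.0, CASAVA 1.8.2, FastQC 0.11.2 and the mm10 build come from the submitters' processing notes. The counter, its annotation and strand setting, and its treatment of multiply matching reads were not given in the sources used here.

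In R 4.3.3 with edgeR 4.0.16, filterByExpr left 14168 genes tested and 9891 untested. TMM scaling and glmQLFit over all 9 libraries gave 2-sided contrasts with Benjamini-Hochberg adjustment over all tested genes (threshold 0.05), where a positive difference is higher in the segment nearer the testis. Log2 differences are of scaled counts. DESeq2 1.42.0 and limma 3.58.1 served as alternatives. The fit was tested on simulated data for caput minus corpus with 14168 genes. There, 92% of 100 changes of 2-fold and 100% of 100 changes of 4-fold were called. All genes were simulated with 1 shared spread (biological coefficient of variation 10.1%), and changed genes were drawn above a set mean count. Far fewer genes were changed than were called in the data. The simulation therefore does not show the power for genes with few counts or wider spread, or the scaling when most genes differ.

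The members and gene lists were chosen with earlier results of these data known. Named genes are the 8 members, other CAP genes, up to 4 of the most abundant genes per list, the 3 genes most like each member and genes that overlap a member. Elane, Mpo, Pbsn and Trpm8 were named after their values were seen. Sequences were read from GENCODE M21 transcripts and RefSeq upstream windows, found for 6 of the 8 members. Proteins were not used here.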

Additional observations from a re-analysis of the deposited data

How the results depend on the processing

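Over 17 or 18 alternatives (other scaling, filters, dispersion, DESeq2, limma on RPKM, a replicate block, each library left out), counts of called genes stayed within 1.5 times the main count. Called genes numbered 7282 to 8576 for caput minus corpus, 4574 to 5946 for corpus minus cauda and 6830 to 8178 for caput minus cauda. Called members numbered 5 to 6, 6 to 6 and 6 to 7. With the replicate number as a block, 8446, 5946 and 8089 genes were called, and the numbers of called members did not change. To see whether the numbers pair the samples, each gene's segment mean was subtracted from its log2 CPM, and libraries of different segments were correlated. On these deviations, same-numbered libraries correlated at -0.045 to 0.239 and over 0.1 in 5 of 9 pairs. Differently numbered ones correlated at -0.227 to 0.174 and over 0.1 in 1 of 18. Of 9 libraries, 6 correlated best with their own number, a hint from the data only. As not every same-numbered pair was over 0.1, the numbers were not taken to pair the samples. Of 491 single-gene values, 476 kept their direction and side of the threshold, 12 lost a call and 1 gained one. A further 2 uncalled values reversed without corpus replicate 3: Crispld1 in corpus minus cauda (-0.47 to 0.11 over libraries left out) and Clec18a in the same comparison (-1.65 to 2.56). Corpus replicate 3 held 2 counts of Clec18a, against 0 in each other corpus library. It also had the lowest Crispld1 RPKM of the corpus (0.287, against 0.618 and 0.656). What set this library apart was not tested. Summing Crisp1 and Crisp3, an alternative chosen after seeing the data, gave -4.82, -0.69 and -5.51. As Crisp3 had only 3.12 to 4.36 counts per 100 Crisp1 counts, the sum had to follow Crisp1 and cannot test how shared reads were placed. Its values are among the 491, set against both Crisp1 and Crisp3. Crispld1 and Glipr1 are limited by their low counts.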

Other observations

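Genes for ion channels on which CRISP proteins are known to act (Trpm8 and the CatSper channel of sperm) were low throughout. Of 12 listed, 9 were in the file and 4 were tested. Catsperg1, an auxiliary CatSper subunit, averaged 1.81 ± 0.32 RPKM in caput, 0.520 ± 0.19 in corpus and 0.656 ± 0.14 in cauda (SD, n = 3 each), and was higher in caput than in corpus (log2 difference 1.56, edgeR adjusted p = 0.000242). Catsperg2 was also higher in caput than in corpus (1.27, edgeR adjusted p = 0.0147). Catsper2, a pore subunit, was lower in caput than in corpus (-0.60, edgeR adjusted p = 0.0125) and higher in corpus than in cauda (0.57, edgeR adjusted p = 0.0167). Catsperd, also tested, was not called for caput minus corpus (0.05, edgeR adjusted p = 0.952) or corpus minus cauda (0.09, edgeR adjusted p = 0.841). Trpm8 had 4 counts over all 9 libraries.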
